A study of Mus musculus with 6 samples.

Results

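The 13494 SOX13 peaks on chromosomes 1 to 19 of Sox13hi γδ thymocytes were described by where they lie: how far each is from the nearest histone mark, where it falls within a marked stretch, and how far it is from the next SOX13 peak. They were taken whole from a list of 13807 SOX13 peaks, the others lying on chromosomes X (149) and Y (164), and from 74959 peaks in the 5 lists of the series. No peak was chosen by its height or by a mark.

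The cells were γδ T cell precursors from the thymus of C57BL/6 mice of genotype TCRbeta KO.Sox13 ECFP KI/+. All libraries, Sox13lo included, thus shared the loss of TCRbeta and 1 Sox13 allele that carries the reporter, an enhanced cyan fluorescent protein (ECFP, sorted as CFP). Cells positive for the γδ receptor and for CD24, a marker of immature thymocytes, were sorted as CFPhi (Sox13hi) or CFPlo/- (Sox13lo). The labels give neither the age of the mice nor the number pooled. Chromatin immunoprecipitation followed by sequencing (ChIP-seq) used 1000000 Sox13hi cells for SOX13 and 250000 cells each for H3K4me3 and for H3K27me3, the histone marks being profiled in both populations. Each group is 1 library, so the values below rest on unreplicated libraries and come without p-values. Read numbers are unknown here, the input library was not analysed here, and peaks were not assigned to genes, so neither the T cell identity of the sample nor background without antibody was checked.

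SOX13 is a transcription factor of the SoxD family. It binds DNA through an HMG box, a domain that sits in the minor groove and bends the helix, and is known for its part in programming γδ T cells that make interleukin 17. H3K4me3 is a histone methylation found around the start sites of active and poised genes, and its stretches are usually centred near the start site. H3K27me3 is laid down by Polycomb repressive complex 2 over silenced genes. Promoters that carry both are called bivalent and are common at developmental regulators. A transcription factor can bind at promoters, inside marked stretches, or at distal elements such as enhancers, which carry other histone marks.

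SOX13 peaks were narrow, with a median width of 250 bp (quartiles 250 and 300 bp), and together covered 4.09 Mb. The Sox13hi H3K4me3 list on the same chromosomes had 19924 peaks with a median width of 800 bp covering 17.3 Mb. Its H3K27me3 list had 14483 peaks with a median width of 300 bp covering 5.02 Mb. Each peak has a score, the authors' own value, whose definition is not given in the sources used here, and which was used only to rank peaks within a list. SOX13 scores had a median of 7.5 (quartiles 6.25 and 9.75), and a single peak scored above 1000. Distances run from the centre of a SOX13 peak to the nearest edge of a mark peak, and a centre between the edges counts as inside.

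Most SOX13 peaks had neither mark within 10 kb, while a minority lay inside H3K4me3. Of the 13494 centres, 1713 lay inside an H3K4me3 peak, a share of 12.7% (95% exact binomial interval 12.1 to 13.3%). Inside an H3K27me3 peak lay 318 centres, or 2.36% (2.11 to 2.63%). Neither mark was found within 10 kb of 8384 SOX13 peaks (62.1%), within 50 kb of 3418 (25.3%), or within 100 kb of 1659 (12.3%). H3K4me3 was the nearer of the marks for 67.3% of the SOX13 peaks, a share that was not set beside shifts. Its list is also the longer, with 19924 peaks against 14483 for H3K27me3. The intervals given here cover counting error only and treat peaks as independent.

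For a background, SOX13 centres were shifted at random 1000 times along their chromosome, in 2 ways. With all peaks of a chromosome moved by 1 distance, 0.717% ± 0.0774 (SD over shifts) fell inside H3K4me3 and 0.199% ± 0.0384 inside H3K27me3, so the observed shares were 17.7 and 11.8 times the shifted ones. With each peak moved by its own distance of at most 1 Mb, which keeps it in its own neighbourhood, 1.10% ± 0.0897 fell inside H3K4me3 and 0.295% ± 0.0445 inside H3K27me3. Against that local background the observed shares were 11.5 (interval 10.99 to 12.01) and 7.99 (7.15 to 8.91) times as high. In none of the local shifts did more than 188 centres fall inside H3K4me3, or more than 60 inside H3K27me3. Remoteness from the marks was less common than in whole-chromosome shifts, where 28.3% ± 0.816 of centres were over 100 kb from both marks, against 12.3% observed. Inside or within 10 kb of H3K4me3 lay 31.9% of SOX13 centres against 14.2% ± 0.495 in those shifts. For H3K27me3 it was 14.3% against 8.72% ± 0.304.

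The ratio to the shifts dropped steeply at the edges of both marks. Just outside H3K4me3, to 250 bp from the edge, lay 199 SOX13 centres, 3.27 times the number when chromosomes were shifted whole and 2.19 times (1.90 to 2.52) the local background. Between 250 and 500 bp the ratios were 1.49 and 1.004, and between 1 and 2 kb, with 259 centres, they were 1.26 and 0.853 (0.753 to 0.962). From 250 bp to 2 kb outside H3K4me3 there were 481 centres against 541 ± 23.0 in local shifts, a ratio of 0.888 (0.812 to 0.970). These ratios count all SOX13 peaks, of which 1713 lay inside H3K4me3, against 149 in local shifts. That alone lowers the numbers outside, so ratios below 1 here do not by themselves show a depletion. H3K27me3 gave 142 centres within 250 bp of the outer edge, 3.29 and 2.35 times the 2 backgrounds. From 250 bp to 2 kb outside it, 349 centres were 1.13 times (1.01 to 1.25) the local background. The step at the edge was thus seen for both marks. SOX13 peaks that overlapped the mark with the centre outside numbered 153 for H3K4me3 and 108 for H3K27me3. Centres just outside an edge therefore include peaks that reach into the mark.

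**Figure D1:**
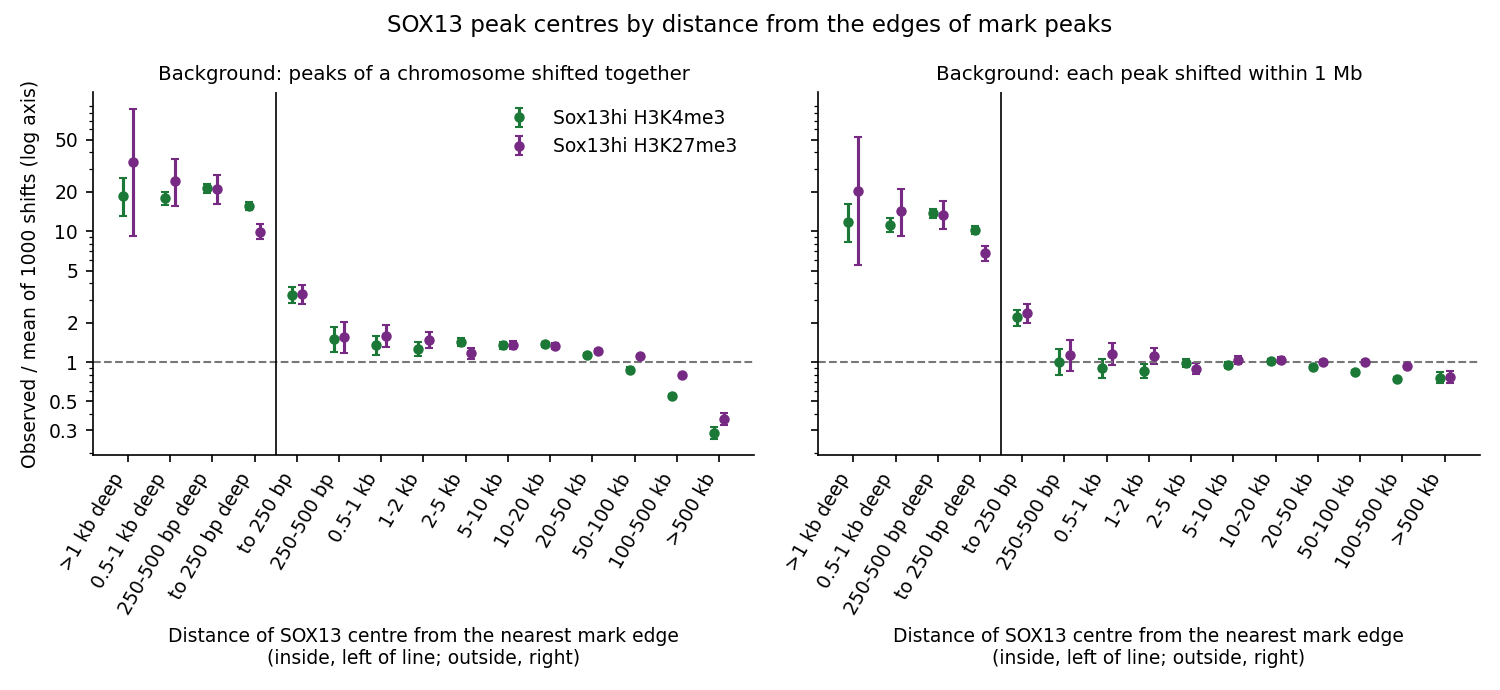
Observed number of SOX13 centres divided by the mean of 1000 shifts (log axis), by distance from the nearest edge of a Sox13hi H3K4me3 or H3K27me3 peak; bars are 95% intervals for counting error. Left of the vertical line (inside) the ratios for H3K4me3 run from 15.5 to 21.4 with whole chromosomes shifted and from 10.3 to 13.7 with local shifts, and beyond 250 bp outside the local ratios for both marks lie between 0.740 and 1.16.

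The choice of background mattered within 10 kb outside the marks. Outside the mark but within 10 kb of H3K4me3 lay 2597 SOX13 centres (19.2%), 1.43 times the share with whole chromosomes shifted (13.5% ± 0.471). The local background gave 19.5% ± 0.346, a ratio of 0.988 (0.954 to 1.02). For H3K27me3 the same zone held 1612 centres (11.9%), 1.40 times the whole-chromosome background and 1.07 times (1.02 to 1.12) the local one. The median distance of the centres outside H3K4me3 was 33.1 kb (quartiles 11.6 and 92.5 kb), against 72.0 ± 3.04 kb in whole-chromosome and 40.4 ± 0.631 kb in local shifts. For H3K27me3 it was 65.9 kb (24.2 and 144 kb), against 96.8 ± 2.55 and 70.0 ± 0.931 kb. SOX13 peaks were therefore in marked neighbourhoods more often than points spread over a chromosome. Within a neighbourhood, counted over all SOX13 peaks, the excess around H3K4me3 lay inside the mark and up to 250 bp from its edge. There SOX13 peaks can still overlap it. Such counts give the zones outside fewer peaks because so many lie inside. By the median, the centres outside H3K4me3 were also nearer to it than in local shifts (33.1 against 40.4 kb). Around H3K27me3 a small excess beyond 250 bp was seen only in the window of 250 bp to 2 kb (1.13, 1.01 to 1.25). Its local ratio was 0.889 (0.806 to 0.978) from 2 to 5 kb and 0.997 (0.946 to 1.05) from 1 to 10 kb.

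Distances over 100 kb were rarer than in either kind of shift, for both marks. For 2774 SOX13 peaks (20.6%) the nearest H3K4me3 peak was over 100 kb away, against 42.1% ± 0.990 in whole-chromosome and 27.7% ± 0.351 in local shifts. Over 500 kb there were 369 peaks, 0.287 times the whole-chromosome and 0.760 times the local number. For H3K27me3, 4800 peaks (35.6%) were over 100 kb away, against 48.9% ± 0.798 and 38.8% ± 0.386.

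The 1713 centres inside H3K4me3 lay towards the middle of the marked stretch. Position was measured as the distance of the SOX13 centre from the H3K4me3 centre divided by the distance from that centre to an edge, so that 0 is the centre and 1 the edge. In 5 equal classes from centre to edge there were 562, 495, 368, 202 and 86 SOX13 centres, or 32.8%, 28.9%, 21.5%, 11.8% and 5.02%. Shifted centres that fell inside were spread evenly apart from fewer at the edge, with 20.3%, 20.5%, 20.5%, 20.5% and 18.3%. The 2 innermost classes together held 61.7% (59.4 to 64.0%) of the centres, against 40% for even placement. The median relative position was 0.3 and the median offset from the centre 125 bp, in H3K4me3 peaks with a median width of 900 bp.

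Neither side was favoured beyond the counting error: 813 centres lay left of the H3K4me3 centre, 793 right of it and 107 on it, a left share of 50.6% (48.1 to 53.1%) of those off centre. Left and right are map directions, since the strand of a gene is not used here. SOX13 peaks lay wholly inside the H3K4me3 peak in 1281 of the 1713 cases (74.8%), and another 153 SOX13 peaks overlapped H3K4me3 with the centre outside. Leaving out SOX13 peaks as wide as their H3K4me3 peak or wider gave 62.3% in the inner classes. H3K27me3 showed a shallower gradient, with 25.8%, 25.8%, 21.4%, 18.2% and 8.81% of 318 centres from centre to edge and 51.6% (45.9 to 57.2%) in the inner classes.

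**Figure D2:**
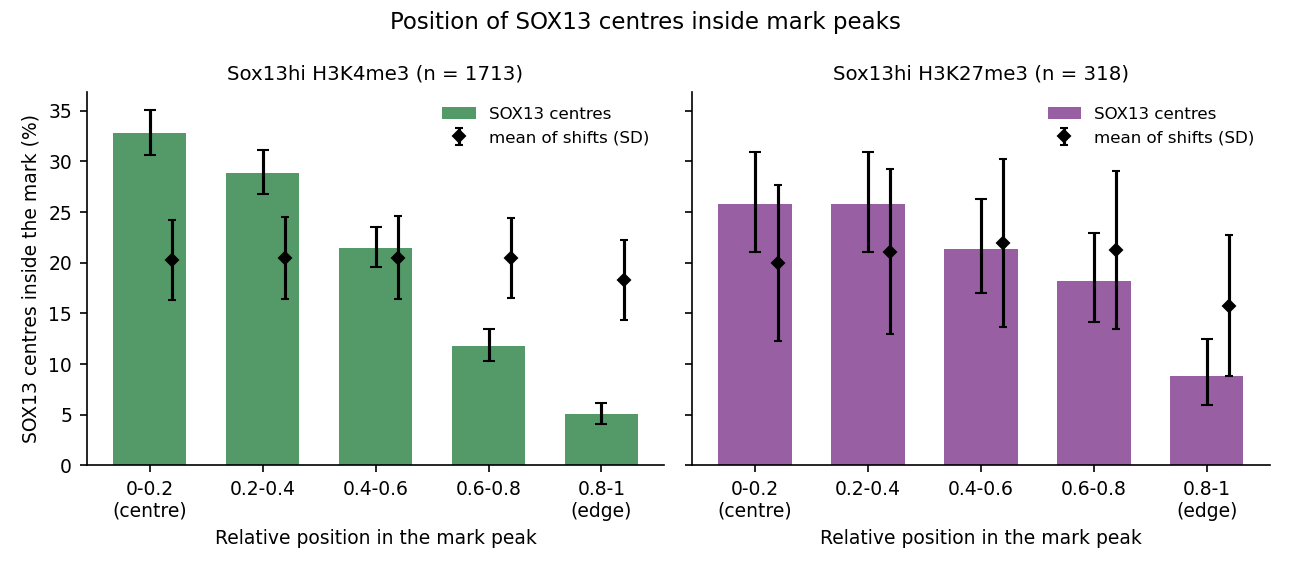
Percent of the SOX13 centres inside a mark peak, by relative position from its centre (0) to its edge (1), for Sox13hi H3K4me3 (n = 1713) and H3K27me3 (n = 318); bars carry 95% exact intervals and diamonds show the mean and SD of 1000 whole-chromosome shifts, in each of which far fewer centres fall inside. In H3K4me3 the shares fall from 32.8% at the centre to 5.02% at the edge, and in H3K27me3 from 25.8% to 8.81%.

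The inward placement varied with the width of the H3K4me3 peak without a steady trend. In stretches under 500 bp the inner classes held 59.6% of 364 centres. The share was 69.2% of 533 centres in stretches of 500 to 950 bp, 63.2% of 451 in those of 1000 to 1450 bp, 46.1% of 230 in those of 1500 to 1950 bp and 59.3% of 135 in those of 2000 bp or more. Wider stretches held SOX13 more often, from 5.98% (5.40 to 6.61%) of those under 500 bp to 16.7% (14.1 to 19.5%) of those of 2000 bp or more. Per Mb of marked sequence there were 179, 113, 77.4, 79.0 and 73.2 centres from the narrowest to the widest class. H3K27me3 differed in that wide stretches held more centres per Mb as well: 43.8 under 500 bp, 81.3 from 500 to 950 bp and 110 from 1000 to 1450 bp, with only 21 and 10 centres in the wider classes.

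Inside H3K4me3, SOX13 score followed the position. Among the 339 centres inside H3K4me3 from score deciles 1 to 5, 25.7% lay in the innermost class. The share was 33.8% of 835 in deciles 6 to 9 and 35.8% (31.8 to 40.02%) of 539 in decile 10. Median scores ran from 11 and 11.25 in the inner 2 classes to 9.75 in the outer 2. These medians differ by little beside the quartiles of the whole list. Inside H3K27me3 the innermost class did not follow this. It held 36% of 100 centres in deciles 1 to 5, 21.5% of 163 in deciles 6 to 9 and 20% of 55 in decile 10. The second class held 19%, 25.8% and 38.2% of them.

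The share inside H3K4me3 climbed at every step of the SOX13 score. By decile from lowest to highest it was 3.04%, 4.003%, 4.81%, 5.56%, 7.71%, 9.93%, 12.4%, 16.3%, 23.3% and 39.96%, a difference of 36.9 percentage points (34.1 to 39.7) between the ends. The local background rose far less, from 0.691% in decile 1 and 0.904% in decile 2 to 1.20% in decile 6, 1.30% in decile 9 and 1.20% in decile 10. The observed share was thus 4.40 times the local background in decile 1, 8.29 times in decile 6 and 33.3 times in decile 10. Peaks outside H3K4me3 but within 10 kb of it were also counted over all peaks of a decile. Their ratio to the local background was 0.925 in decile 1, 1.08 in decile 6 and 0.859 in decile 10. More centres inside leave fewer for this zone, so these ratios do not show whether the peaks outside lay nearer with score.

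Score and neighbourhood were related too, mostly at the low end. In decile 1, 38.8% of the SOX13 peaks were over 100 kb from H3K4me3, near the 42.7% of whole-chromosome shifts, and in decile 10 it was 10.5% against 41.9%. The median distance of the peaks outside H3K4me3 was 67.9 kb in decile 1, 34.1 kb in decile 3 and 23.9 kb in decile 10. Peaks of the lowest decile were thus about as often remote from H3K4me3 as shifted points are, although they too lay inside it more often than those.

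H3K27me3 showed the same direction on a smaller scale. From the lowest to the highest decile the share inside it was 1.19%, 1.19%, 1.41%, 1.85%, 1.78%, 1.85%, 2.67%, 3.63%, 3.93% and 4.08%. The ends differed by 2.89 points (1.66 to 4.19). Relative to the local background the ratio was 6.34 in decile 1 and 12.7 in decile 10. Over 100 kb from H3K27me3 lay 49.2% of decile 1 and 31.9% of decile 10.

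**Figure D3:**
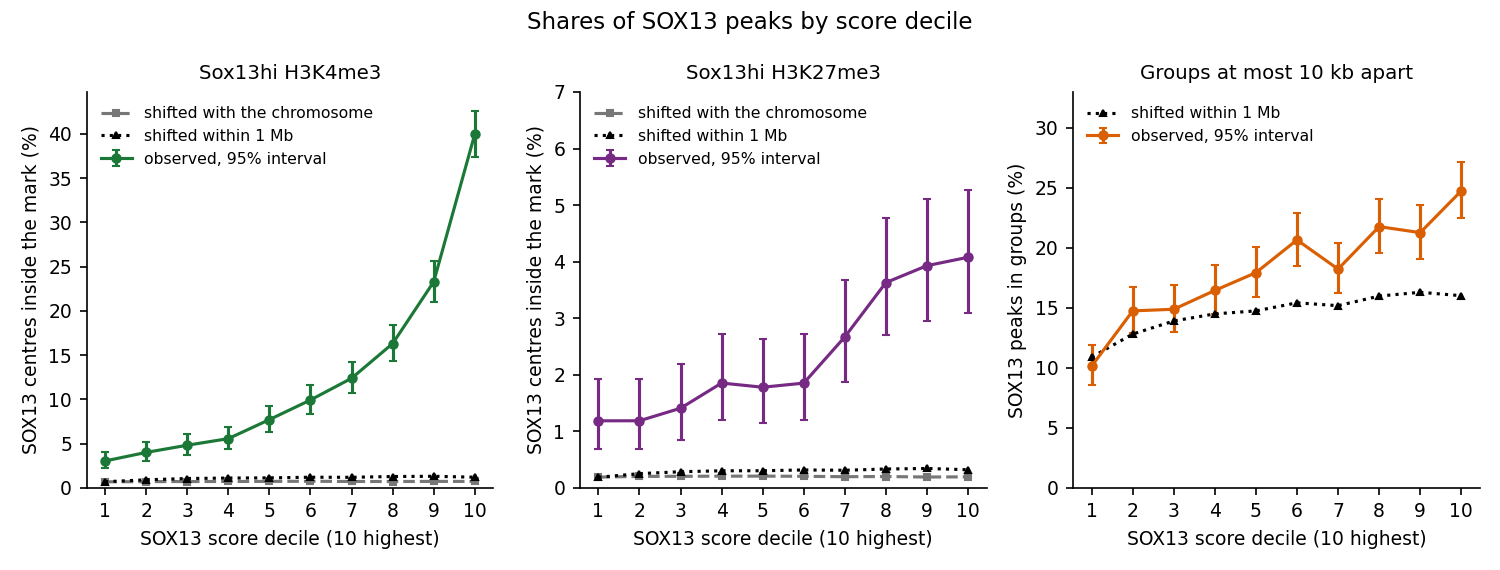
Percent of SOX13 peaks with the centre inside Sox13hi H3K4me3 (left) or H3K27me3 (middle), and in a group of peaks at most 10 kb apart (right), by SOX13 score decile (10 is the highest, 1349 or 1350 peaks each), with 95% exact intervals and the means of shifts. The share rises from 3.04% to 39.96% for H3K4me3, from 1.19% to 4.08% for H3K27me3 and from 10.1% to 24.8% for groups, while the shares shifted within 1 Mb go from 0.691% to 1.20%, from 0.187% to 0.320% and from 10.9% to 16.02%.

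SOX13 inside H3K27me3 was mostly SOX13 inside both marks. Of the 318 centres inside H3K27me3, 214 (67.3%, interval 61.8 to 72.4%) were also inside H3K4me3. These 214 were 1.59% of all SOX13 peaks, against 0.0593% ± 0.0212 in whole-chromosome shifts, a ratio of 26.7. That ratio is over all peaks. In the same shifts 0.199% of centres lay inside H3K27me3, so part of the shifted centres inside H3K27me3 were inside H3K4me3 as well. Another 38 of the 318 were outside H3K4me3 but within 10 kb of it, 49 were 10 to 100 kb and 17 over 100 kb from it. Their median scores were 10 for those inside both marks, then 8.25, 7 and 6.5 with growing distance from H3K4me3. The 1231 SOX13 peaks inside H3K4me3 with no H3K27me3 within 10 kb had a median score of 10.75. At the other end, the 1659 peaks over 100 kb from both marks had a median of 6.5, and there were 0.435 times as many as in whole-chromosome shifts.

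The score of the H3K4me3 peak related to SOX13 in a curve with 2 high points. The 19924 H3K4me3 peaks were cut into score deciles, and the share holding a SOX13 centre was 1.81%, 3.71%, 6.62%, 9.99%, 10.7%, 8.38%, 7.43%, 7.88%, 10.7% and 16.7% from lowest to highest. The first high point, in decile 5 (9.37 to 12.1%), lay above decile 7 (6.32 to 8.67%) and decile 8 (6.73 to 9.15%). H3K4me3 peaks widen with score, from a median of 250 bp in decile 1 to 700 bp in decile 5 and 1650 bp in decile 10. Per Mb of H3K4me3 the number of SOX13 centres was highest in decile 4, at 183, fell to 66.7 in decile 8 and was 98.3 in decile 10.

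The share of top-scoring peaks among the SOX13 centres was highest in the middle of the H3K4me3 score range. Of the 217 SOX13 centres in H3K4me3 decile 5, 112 (51.6%) belonged to the top SOX13 score decile, as did 87 of 172 (50.6%) in decile 6 and 87 of 199 (43.7%) in decile 4. In decile 8 it was 34 of 161 (21.1%), in decile 9 36 of 220 (16.4%) and in decile 10 90 of 352 (25.6%). The median SOX13 score inside H3K4me3 was 14.25 in deciles 5 and 6, 9.25 in decile 8 and 10.25 in decile 10. H3K27me3 was also most frequent near the middle: the SOX13 centre lay inside it as well for 17.1% in H3K4me3 decile 5, 22.7% in decile 6 and 19.9% in decile 8, against 6.06% in decile 3 and 4.83% in decile 10.

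**Figure D4:**
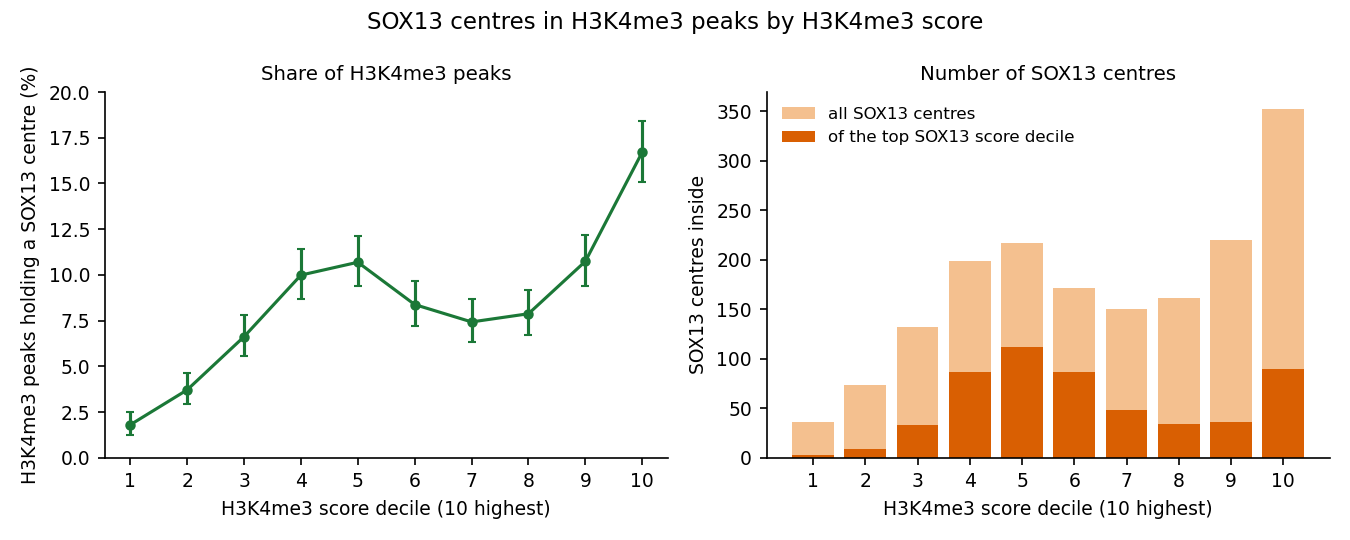
Left, percent of Sox13hi H3K4me3 peaks that hold at least 1 SOX13 centre, by H3K4me3 score decile (about 1992 peaks each), with 95% exact intervals. Right, number of SOX13 centres in the same deciles (light) and those of the top SOX13 score decile among them (dark): 112 of 217 in decile 5 and 90 of 352 in decile 10.

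H3K4me3 peaks that held SOX13 mostly held a single centre, a count that was not set beside shifts. Of the 19924 H3K4me3 peaks, 1673 (8.40%) held a SOX13 centre, 1633 of them 1 centre and 40 of them 2, and no H3K4me3 peak held more. Those with 2 were wider, with a median of 1500 bp against 900 bp, and their SOX13 centres were a median of 688 bp apart (350 to 2125 bp). The 3 with the highest H3K4me3 score were at chr17:13743301-13745249, with SOX13 scores of 261 and 429 and centres 975 bp apart, at chr6:29697401-29699049 (31.25 and 470.75, 850 bp apart) and at chr6:119428801-119431499 (7.75 and 25.25, 1025 bp apart). Coordinates are mm9 and count from 1. None of these 6 centres lay inside H3K27me3.

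Adjacent SOX13 peaks were mostly far apart. The 13475 gaps between neighbouring peaks, edge to edge, had a median of 87.7 kb (quartiles 31.8 and 207 kb), and the shortest was 50 bp. With each peak shifted within 1 Mb the median was 97.0 ± 0.920 kb, and with peaks placed anywhere on their chromosome 122 ± 1.09 kb. Gaps of 1 kb or less numbered 231, against 133 ± 11.6 in local shifts, a ratio of 1.73. The ratio to local shifts was 1.70 (1.43 to 2.01) under 500 bp, 1.78 (1.44 to 2.19) from 500 bp to 1 kb, 1.31 (1.10 to 1.55) from 1 to 2 kb, 1.19 (1.10 to 1.29) from 5 to 10 kb and 1.06 (1.02 to 1.10) from 20 to 50 kb. Shifted peaks may land on one another, and such pairs were counted with the shortest gaps, whereas peaks of the list never overlap.

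The longest stretches without a SOX13 peak were 7.76 Mb on chromosome 7, chr7:38952601-46709550, then 3.71 Mb at chr14:3651651-7357100 and 3.54 Mb at chr4:78874651-82415800. Whether reads could be placed in these stretches was not examined.

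Groups were formed by joining SOX13 peaks at most 10 kb apart. The last gap taken in was 10000 bp and the first left out 10050 bp, with 49 gaps in the 500 bp below the limit and 65 in the 500 bp above it. The 13494 peaks formed 12175 groups, of which 11053 were single peaks. The other 2441 peaks (18.1%, interval 17.4 to 18.7%) lay in 1122 groups of 2 or more, against 14.6% ± 0.406 of peaks in local shifts, a ratio of 1.24. With peaks placed anywhere on their chromosome it was 11.04% ± 0.364, a ratio of 1.64. Groups of 2 numbered 979, of 3 106, of 4 26, of 5 8, and there was 1 each of 6, 7 and 8. The excess grew with size: 979 groups of 2 against 849 in local shifts, 106 against 77.2 of 3, 26 against 8.13 of 4, and 11 against 1.05 of 5 or more. Both marks were more grouped than SOX13 by the same rule, with 35.4% of H3K4me3 and 47.2% of H3K27me3 peaks in groups, in lists of other lengths.

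High-scoring SOX13 peaks lay in groups more often. The share in groups was 10.1% in decile 1 and 24.8% in decile 10, a difference of 14.6 points (11.7 to 17.5), with ratios to local shifts of 0.932 and 1.55. Close neighbours were frequent in the top decile. In decile 10, 8.30% (6.89 to 9.90%) had a neighbour within 1 kb, against 4.30% (3.28 to 5.52%) in decile 9 and 1.85% (1.20 to 2.72%) in decile 1. Of the 283 peaks with a neighbour within 500 bp, 29.7% (24.4 to 35.4%) belonged to the top decile and 34.6% (29.1 to 40.5%) lay inside H3K4me3. With the neighbour 1 to 10 kb away those shares were 11.2% and 13.4% of 1984 peaks, and over 100 kb away 7.36% and 9.81% of 3396.

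Grouped peaks were nearer to H3K4me3. Of the peaks in groups, 16.2% lay inside H3K4me3, against 11.9% of single peaks, a difference of 4.26 points (2.69 to 5.89). Within score classes the differences were smaller and their intervals included 0: 1.49 points (-0.0490 to 3.26) in deciles 1 to 5, 2.38 (-0.0721 to 4.97) in deciles 6 to 9 and 2.61 (-3.57 to 8.87) in decile 10. Outside H3K4me3 but within 10 kb of it lay 30.5% (28.7 to 32.3%) of grouped and 16.8% (16.1 to 17.5%) of single peaks. In groups of 3 or more it was 39.3% (35.0 to 43.9%). Part of this contrast is built in, because groups are joined by the same 10 kb. A peak grouped with one inside H3K4me3, as in 204 of the 979 pairs, tends to lie in this zone. The contrast was not compared with shifts or within score classes. Over 100 kb from H3K4me3 lay 10.9% of grouped and 22.7% of single peaks.

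Most of the 979 pairs joined SOX13 peaks that were both outside H3K4me3 (724 pairs), 204 pairs had 1 peak inside, and 51 had both inside, 29 of these within the same H3K4me3 peak. In the 203 pairs with 1 peak inside and unequal scores, the inside peak scored higher in 159, or 78.3% (72.0 to 83.8%). The median score was 11.25 for the inside and 7.88 for the outside member, at a median gap of 5050 bp. The link between score and H3K4me3 thus held between neighbours as well as across the list.

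The largest group, of 8 peaks, lay at chr4:3007201-3012899, 7.15 kb from the first peak of any list on that chromosome. Its peaks had scores from 21.25 to 151.75, all in the top decile, and the nearest H3K4me3 was 489 kb away. The second, of 7 peaks, at chr17:3007951-3032149, started 0.4 kb from the first peak on chromosome 17, with scores from 12.5 to 62.5 and 6 peaks in the top decile. It had 5 H3K4me3 peaks in its span with no SOX13 centre inside any of them, 1 centre lying exactly on an edge. A group of 5 at chr16:3234201-3241249 lay 120 kb from the first peak of its chromosome, with scores from 28.75 to 91.25, all in the top decile, and H3K4me3 502 kb away. These 3 groups hold 20 of the 61 peaks in groups of 5 or more (32.8%), while the first 1 Mb of each chromosome's peaks makes up 0.787% of the stretch covered and 1.09% of all SOX13 peaks. Leaving that 1 Mb out left 8 groups of 5 or more. Signal of the input library at these 3 groups was not checked, so SOX13 binding is not told apart from background there.

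The group of 6 on chromosome 2, chr2:27351151-27357749, was of another kind. All 6 centres lay inside both H3K4me3 and H3K27me3, in a span of 6600 bp that held 4 peaks of each mark. SOX13 peaks covered 4700 bp of it, with scores of 9.5, 22.25, 34.5, 72, 6.5 and 34.5 from left to right. The H3K4me3 peaks there had scores from 9.5 to 87.75 and the H3K27me3 peaks from 8.5 to 157.5. None of the other groups among the 10 largest had all its centres in a mark.

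Another 2 of the 10 largest groups had centres in H3K4me3. Ties were broken by the shorter span, which left out 1 group of 5 that also has a centre in H3K4me3. At chr17:84576951-84594399, 3 of 5 centres were inside, 2 of them in a single H3K4me3 peak of 3400 bp, and the scores were 8.25, 14.5, 15, 7.25 and 10.5. At chr11:97482251-97502499, 3 of 5 centres were inside H3K4me3 and 1 of these inside H3K27me3, with scores of 18, 19.75, 5.75, 7 and 18.5. Another group of 5 on the same chromosome, at chr11:97357201-97374849, had scores of only 6.25 to 9.25 and its nearest H3K4me3 4.1 kb away. The last 3 groups were at chr3:97369451-97383099 (5.25 to 20.25), at chr4:147239701-147261649 (6.25 to 16) and on chromosome 18 (7.25 to 10), each with 5 peaks and no centre in either mark.

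**Figure D5:**
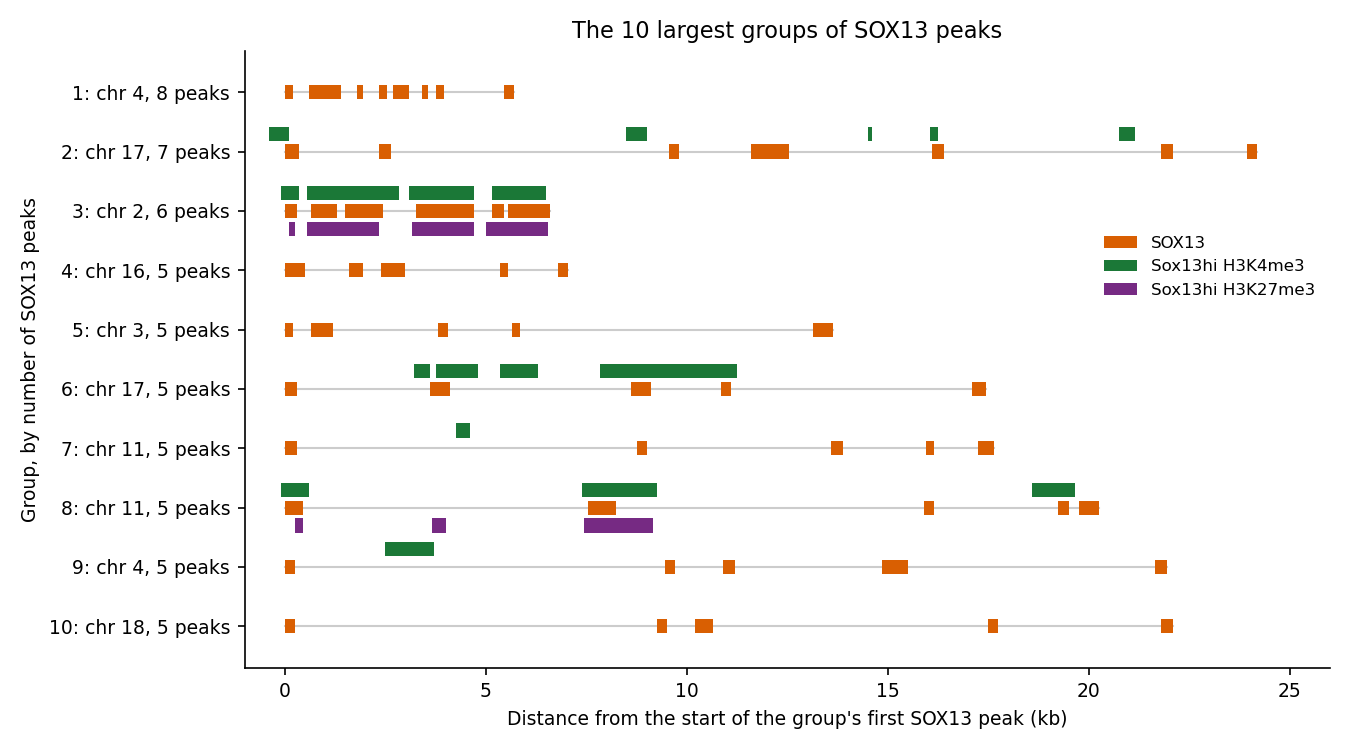
The 10 groups with the most SOX13 peaks, drawn to scale by distance in kb from the start of the first SOX13 peak, with SOX13 peaks in orange, Sox13hi H3K4me3 in green above and H3K27me3 in purple below. The group of 6 on chromosome 2 is covered by both marks, 2 others have 3 centres each in H3K4me3, and the groups of 8 on chromosome 4 and of 5 on chromosome 16 have no mark peak in their span.

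Single SOX13 peaks inside H3K4me3 reached high scores without neighbours. The highest, at chr6:41071751-41072049, scored 523.25, lay 150 bp from the centre of a 900 bp H3K4me3 peak and also inside H3K27me3, with the next SOX13 peak 56.9 kb away. The next, at chr17:13498601-13499199 (score 320.25), was 600 bp wide in an H3K4me3 peak of 550 bp. It was followed by chr4:20118801-20119149 (157.75), 50 bp off the centre, chr1:197067451-197068049 (154.5), 225 bp off, and chr19:61275451-61275899 (125.5), exactly on the centre of an 850 bp H3K4me3 peak. None of the latter 4 had H3K27me3 nearer than 27.1 kb.

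Far from both marks, the highest scores were in 1 place. The 3 highest-scoring peaks with neither mark within 100 kb form a group on chromosome 17 with gaps of 0.7 and 0.1 kb, the widest SOX13 peak of the list (4100 bp, score 6724) and 2 of 650 bp each (805.25 and 792.75). H3K4me3 was 507 to 511 kb and H3K27me3 208 to 212 kb away. Signal of the input library at this place was not checked, so SOX13 binding is not told apart from background there. The other 2 peaks chosen by this rule scored 237, at chr16:57391401-57391949, and 65.5, at chr3:5860701-5860999. Both were single, with the next SOX13 peak 41.3 and 210 kb away.

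The main values varied moderately between the 19 chromosomes. The share inside H3K4me3 ran from 9.51% on chromosome 14 to 15.6% on chromosome 11, with a median of 12.6%. The share in the inner position classes ran from 53.3% on chromosome 6 to 71.4% on chromosome 19, above the 40% of even placement on all 19. Median distances outside H3K4me3 ran from 23.0 kb on chromosome 11 to 52.2 kb on chromosome 12. The share of peaks in groups ran from 13.3% on chromosome 1 to 21.7% on chromosome 11.

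Measured against the Sox13lo marks, the same SOX13 peaks were placed as follows. Inside Sox13lo H3K4me3 lay 1533 centres (11.4%) and inside Sox13lo H3K27me3 287 (2.13%), lists of 17954 and 7268 peaks. The inner position classes held 62.2% (59.7 to 64.7%) and 51.9% (46.0 to 57.8%) of them. SOX13 was profiled in Sox13hi cells only, and list lengths differ, so these values do not compare SOX13 between the populations.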

How the data were processed

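SOX13, H3K4me3 and H3K27me3 ChIP-seq peaks were analysed as deposited, 1 list per library and 5 lists in all, with positions in mm9 per the submitters' processing notes. Per the labels' protocols, cells were fixed with 1% formaldehyde and libraries amplified for 17 cycles at 300 to 500 bp. The score of each peak is a value the authors deposited; what it measures, the aligner, the caller, its settings and the control were not given in the sources used here, and depth is unknown. Peaks start on a 50 bp grid and end 1 bp short of it, so the last base was included.

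Distances ran from SOX13 centres to mark edges. The background came from 1000 shifts on the 50 bp grid, confined to the part of each chromosome spanned by the 5 lists and wrapped at its ends. Ratios use the mean of the shifts. Spacing used shifts of each peak within 1 Mb, since whole-chromosome shifts keep spacing. Shares have 95% exact (Clopper-Pearson) intervals, and differences an interval built from 2 of these. Score deciles split ties in genome order.

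The members, measures and lists were chosen with earlier results of these data known. Peaks named are the 10 largest groups (ties by shorter span), the 5 highest-scoring single peaks inside H3K4me3, the 5 highest-scoring with neither mark within 100 kb, the 3 H3K4me3 peaks with most SOX13 centres (ties by H3K4me3 score) and the 3 longest gaps. Python 3.11.15, NumPy 2.4.6, pandas 2.3.3, SciPy 1.17.1 and matplotlib 3.10.9 were used. The code was tested on simulated data, and distances to both marks were within 1 bp of those of bedtools 2.31.1 for all 13494 peaks.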

Additional observations from a re-analysis of the deposited data

Results flagged for a closer look

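SOX13 peaks on chromosomes X and Y lie outside the set described and were looked at separately. Chromosome X had 149, of which 17 (11.4%, interval 6.79 to 17.6%) had the centre inside H3K4me3, 12 (8.05%, 4.23 to 13.6%) inside H3K27me3 and 14 (9.40%) lay in groups. Chromosome Y had 164, of which 65 (39.6%, 32.1 to 47.6%) lay inside H3K4me3, 66 (40.2%, 32.7 to 48.2%) inside H3K27me3 and 131 (79.9%) in groups, the largest of 57 peaks. Their median score was 6 on X and 3 on Y. The Sox13hi lists had 89 H3K4me3 and 100 H3K27me3 peaks on Y. The shares on X and Y were not set beside shifts, so no excess over a background is given for them. No other library gives a level for comparison, so both counts are set only against the 3 peaks that a count of 0 allows.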

How the results depend on the processing

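No paired analysis was possible because there are no replicates. Of 83 alternative values 40 moved by more than the counting error. Numbers of groups of 5 or more have no such error here and were classed as moved by a set factor instead. The ratio within 10 kb outside H3K4me3, counted over all SOX13 peaks, went from above to below 1 with each peak shifted within 1 Mb. With the top 50% of SOX13 peaks by score, 20.3% lay inside H3K4me3 and 3.23% inside H3K27me3, median outside distances were 26.3 and 58.0 kb, and 14.5% lay in groups. With the top 50% of the mark's own peaks, 7.82% lay inside H3K4me3 and the distances were 70.2 and 138 kb. The Sox13lo lists gave 11.4% inside H3K4me3 and distances of 38.5 and 150 kb. Overlap of 1 bp in place of the centre gave 13.8% for H3K4me3, and 1 SOX13 peak per group gave 35.7 kb. With whole chromosomes shifted by 50 kb to 1 Mb the ratios inside, within 1 kb outside and within 10 kb outside were 11.7, 1.30 and 1.001 for H3K4me3 and 8.05, 1.51 and 1.07 for H3K27me3. With each peak shifted within 1 Mb they were 11.5, 1.28 and 0.988, and 7.99, 1.51 and 1.07, where whole-chromosome shifts gave 17.7, 1.91 and 1.43, and 11.8, 2.08 and 1.40. The median position was 0.333 in H3K4me3 peaks at least 1 kb wide. The share in groups was 5.30%, 10.4%, 30.6% and 55.7% for gaps of 2, 5, 20 and 50 kb, 15.3% with SOX13 peaks at most 1 kb apart merged and 15.4% without those inside H3K4me3. Its ratio to shifts was 1.14 within 250 kb and 1.64 anywhere on the chromosome. Groups of 5 or more numbered 4 after merging, 3 at 5 kb and 30 at 20 kb. The decile differences moved little when tied scores were kept together or chromosomes 6 and 17 left out (36.8 and 35.9 points inside H3K4me3). Leaving out the first 1 Mb, the highest-scoring 1% or SOX13 peaks as wide as their H3K4me3 peak or wider, and the checks on groups of 5 or more, pairs and H3K4me3 deciles, were added after seeing the data. The local profile, also added then, uses the same shifts within 1 Mb. Unknown depth limits which low-scoring peaks were called.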
